A study of Mus musculus with 19 samples.

Results

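The probes described here were 96 bright probes of a miRNA microarray whose codes consist of digits alone and which the authors left out of their table of processed values. They were chosen from the scanner intensities. A probe was included when its foreground minus local background, averaged over its 3 spots and then over the 4 control arrays, was at least 1000 intensity units. The array held 3432 probes, of which 576 had a number code and were absent from the authors' table, with a median control level of 47.5 units. All 96 passed the filter on dim probes.

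MicroRNAs are short RNAs that guide Argonaute proteins to messenger RNAs and lower their stability or translation. Brain tissue expresses many of them at high levels. Glycogen synthase kinase 3 (GSK3) is a serine/threonine kinase of Wnt and insulin signalling that lithium inhibits, which is why it is studied in the action of mood stabilisers and antidepressants. The deposited files and the reference tables at hand pair no number code with a miRNA name, a sequence or a species, so each probe is given by its code, and no marker of hippocampal tissue could be looked up among them.

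In the study, right hippocampi of C57BL/6 males, all adult, gave small RNA for 19 arrays in 5 groups. These were a vehicle control, treatments directed at GSK3 (siGSK3b, L803mts and lithium) and ketamine. Control mice received vehicle intranasally, 5 µL in each nostril, every other day for 3 days (n = 4). Both other intranasal groups followed the same schedule. The siGSK3b group (n = 4) was given 10 µg of siRNA against GSK3beta (11 µg in the label of replicate 4). The L803mts group (n = 4) was given 60 µg of a peptide inhibitor of GSK3 (61 µg in the label of replicate 4). The lithium group (n = 4) ate lithium chow for 4 weeks, at 0.2% in the sample labels but 2% in the treatment protocol. The ketamine group (n = 3) received 10 mg/kg of this NMDA receptor antagonist intraperitoneally, 24 h before collection. The same interval of 24 h is given for the other groups. Lithium and ketamine had no control of their own route among the arrays used. The labels do not say that each array came from a separate mouse, so p-values measure the spread between arrays, which may be technical.

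The 19 arrays lay on 6 slides, and no slide held more than 1 group. In siGSK3b, L803mts, lithium and ketamine, the effects of slide and of treatment therefore cannot be told apart. From its slide, which had a later serial number than all the others, L803mts replicate 2 was the only array used. It was also the dimmest array, with a median foreground of 115 units against 146 to 190 on the others, and the 53 members that never saturated had a median net intensity of 1426 on it, against 1986 to 3460 elsewhere.

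Many members were brighter than the scanner could record. At least 1 spot reached the ceiling of 65535 units in 43 of the 96 probes (44.8%), and in 24 of these every spot was saturated on all 19 arrays. Among equally selected bright probes, saturation occurred in 3 of the 163 number-coded probes that the authors did list (1.84%) and in 22 of the 171 unlisted probes with ORB codes (12.9%). The median control level was 27601 units for the 96 members, 5241 for the listed number-coded probes and 3884 for the unlisted ORB-coded probes. Because control brightness chose all 3 sets, these levels are a description, and no test was made.

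The 6 members with the highest control level were probes 2245, 2594, 1251, 3023, 3217 and 2907, all at the ceiling. For probe 2245 the raw net values ran from 65414 to 65443 units over the 19 arrays, with the foreground of every spot at the ceiling. Probes 2245, 1878 and 1021 had the smallest SD of all members, and each was saturated. A pinned probe has only a lower bound in every group, so no fold change is given for the 24 fully saturated members. Another 19 members saturated on some spots, with control levels from 37892 to 65435 units. Probe 2282 was one of these, with 3 saturated spots in all. Its raw net values were 59953, 62758, 51280 and 47237 in control, 45637, 47610, 45695 and 47347 in siGSK3b, and 58116, 34363, 49889 and 45371 in L803mts. They were 56914, 54692, 63576 and 45162 in lithium and 48448, 41362 and 48646 in ketamine. The groups overlapped, and the lowest value was that of L803mts replicate 2. No member with a saturated spot passed the test in any comparison with control. Changes above the ceiling are not recorded, so the absence of calls says little about these members.

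At the other end, the members closest to the limit of 1000 units were probes 3165, 1393 and 2978, at 1209, 1087 and 1003 units. Probes 2915, 3256 and 1892 fell just short of it, at 957, 910 and 891 units. The control arrays differed at that edge, since probe 2978 had 1222 units in control replicate 1 but 894 in replicate 3. Leaving out each control array in turn gave 93 to 98 members.

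The 53 members that never saturated fell into unequal groups by how well their 3 spots matched. Each probe was printed in an upper, a middle and a lower spot of the same block. In 45 members the mean intensity of the upper spot over that of the lower spot was 0.771 to 1.41. In the other 8, probes 1527, 1812, 1960, 2869, 2877, 2906, 2910 and 3142, the upper spot was 2.06 to 10.3 times as bright as the lower one. This ratio was averaged over the arrays and was not constant. From control to ketamine it went from 1.79 to 2.34 in probe 2877 and from 2.82 to 1.82 in probe 2910. In L803mts replicate 2 it was 1.98 and 1.20 in these probes. This grouping was made after the values were seen, and it supports no test. Such unequal spots were found in 8 of 53 unsaturated members (15.1%), 2 of 160 listed number-coded probes (1.25%), 5 of 149 unlisted ORB-coded probes (3.36%) and 70 of the 3421 tested probes of any brightness (2.05%). None of the bright probes in these 3 sets had a lower spot 2 or more times as bright as the upper one.

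For probe 3142 the upper, middle and lower spots read 5741, 1407 and 612 units in control replicate 1 and 2084, 391 and 224 in control replicate 4. In ketamine replicate 1 the same spots read 660, 164 and 78 units, and in L803mts replicate 2 they read 162, 6 and 27. The order of upper over middle and lower spot was kept from control to ketamine while all 3 spots became dimmer. The upper, middle and lower spots of probe 1812 read 14354, 4067 and 996 units in control replicate 1, and 2586, 692 and 308 in ketamine replicate 1. Probe 2910 was the most even of the 3 shown, with 8827, 4758 and 3835 units in control replicate 1 and 2932, 1892 and 1747 in ketamine replicate 1.

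The 8 probes sat in few places on the array. Of its 8 blocks, block 3 held 5 of them, block 2 held 2 and block 6 held 1, whereas the 96 members were spread over all blocks with 7 to 18 in each. Probes 2869, 2877, 2906 and 2910 all had their upper spot in row 4 of block 3. Over all tested probes, 62 of the 70 with unequal spots were in blocks 1, 2, 3 and 6. The first number of the probe's ID field, whose meaning the files do not state, was 3 for 6 of the 8 probes and 4 for the other 2. The same field was 1 for 19 members, 2 for 8, 3 for 53 and 4 for 16, and the 8 with a 2 came from only 13 unlisted number-coded probes with that value.

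The unequal-spot probes also varied most. On the normalized log2 scale their SD over the 19 arrays was 0.41 to 0.82, with a median of 0.71. The 45 even-spot members had a median SD of 0.18 (0.08 to 0.72), and the median over all tested probes was 0.12. The 3 largest SDs of the 96 members belonged to probes 3142, 2906 and 1527. Over the 19 arrays the unequal-spot probes varied together (28 pairs, r from 0.82 to 0.98, median 0.95). As deviations from group means without L803mts replicate 2, r was 0.42 to 0.87 (median 0.70). Among the 45 even-spot members the median r over the 19 arrays was 0.04 (-0.86 to 0.87).

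The siGSK3b comparison asked which of these probes moved when GSK3beta itself was targeted. None of the 96 passed an adjusted p of 0.05 in limma, against 0.117% of the 3421 tested probes, while 19 had an unadjusted p under 0.05 (3 higher, 16 lower), against 11.5% of all tested probes. The control arrays that chose the members enter this and every other comparison with control. The 3 largest differences were those of probes 2932, 2906 and 2869. Probe 2932 read 11.76, 10.00, 9.82 and 9.93 on the log2 scale in control and 11.00, 11.63, 11.17 and 11.98 in siGSK3b, a difference of 1.07 (SE 0.40, adjusted p = 0.274). Control replicate 1 lay inside the siGSK3b range. Probe 2869 read 11.08, 11.04, 11.17 and 10.93 in control and 10.46, 10.41, 10.20 and 10.16 in siGSK3b. These groups did not overlap, and the difference of -0.75 missed the threshold (SE 0.15, adjusted p = 0.0753). Probe 2906 read 10.80, 10.98, 11.06 and 10.71 in control and 10.22, 10.29, 10.06 and 9.83 in siGSK3b. This difference of -0.79 (SE 0.27, adjusted p = 0.229) also missed it, although every siGSK3b value lay below every control value. Without control replicate 1, the comparison called 3 members (1 rose, 2 fell) among 33 probes of the whole array. With only these 2 groups fitted it called 4, all lower, among 20.

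Against control, 7 of the 96 members fell in L803mts and none rose. That is 7.29% of the members, beside 2.48% of all tested probes called in either direction, 1.87% called lower and 0.614% called higher. In this and every other comparison the 96 include 24 members with every spot at the ceiling on all arrays. Those could hardly be called, which lowers the share of the members. All 7 called here (1527, 1812, 2869, 2877, 2906, 2910 and 3142) were unequal-spot probes, among the 53 members that never saturated. Probe 3142 read 10.50, 10.09, 9.79 and 9.54 in control and 9.03, 7.21, 8.87 and 8.50 in L803mts, a log2 difference of -1.58 (SE 0.30, adjusted p = 0.00887). The groups did not overlap, and replicate 2 was the lowest L803mts array. Probe 2906 read 9.75, 8.11, 9.72 and 9.78 in L803mts, a difference of -1.55 from control (SE 0.27, adjusted p = 0.00428). Probe 2869 read 10.21, 9.18, 9.82 and 9.86, a difference of -1.29 (SE 0.15, adjusted p = 0.000324). In both, all 4 arrays were below all control arrays, and replicate 2 was again the lowest.

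Probe 2877 read 10.28, 10.55, 10.54 and 10.25 in control and 9.64, 7.72, 9.34 and 9.31 in L803mts, with a fitted change of -1.40 (SE 0.27, adjusted p = 0.00917). Probe 1527, the brightest of the 8, read 12.44, 12.42, 12.56 and 12.31 in control and 11.64, 9.39, 11.59 and 11.51 in L803mts, with a change of -1.40 (SE 0.34, adjusted p = 0.0396). Probe 1812, named here after its values were seen, read 11.67, 11.37, 11.18 and 11.10 in control and 10.47, 8.63, 10.65 and 10.56 in L803mts, with a change of -1.25 (SE 0.31, adjusted p = 0.0396). Probe 2910 read 11.57, 10.77, 11.43 and 11.51 in L803mts, a smaller change of -0.87 (SE 0.12, adjusted p = 0.00134). Replicate 2 was the lowest L803mts array in each of these 4 probes. Without replicate 2 the 7 falls were smaller, -0.69 to -1.18, but all 7 stayed past the threshold (adjusted p = 1.65e-05 to 0.00251), while probe 1960 was at -0.42 (adjusted p = 0.164). The calls of 1527 and 1812 were the least firm, each lost in 14 of 23 alternative settings, including the fits without any 1 of the control arrays. Those of 2877, 2906, 2910 and 3142 were each lost in 2 of 23, of which 1 was the fit of control and L803mts alone. The other was plain background subtraction for 3142, and leaving out spots marked as not found for 2877, 2906 and 2910. The whole count dropped to 2 (of 11 probes called on the whole array) when spots marked as not found were left out and to 1 (of 20) when only control and L803mts were fitted.

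In lithium 5 members fell, probes 2869, 2877, 2906, 2910 and 3142, and none rose. They were 5.21% of the 96, beside 2.34% of all tested probes called in either direction, 1.32% called lower and 1.02% called higher. Probe 3142 read 8.71, 8.56, 8.38 and 8.27 in lithium, a difference from control of -1.50 (SE 0.30, adjusted p = 0.0115). Probe 2906 read 9.60, 9.60, 9.31 and 9.40, a difference of -1.41 (SE 0.27, adjusted p = 0.00862). Probe 2869 read 9.95, 9.75, 9.71 and 9.59, a difference of -1.30 (SE 0.15, adjusted p = 0.000553). Every lithium array lay below every control array in all 3 probes. Probe 2910 read 12.12, 12.26, 12.26 and 12.14 in control and 11.55, 11.37, 11.34 and 11.34 in lithium, a smaller difference of -0.79 (SE 0.12, adjusted p = 0.00249). Probe 2877 read 9.35, 9.23, 9.12 and 8.97 in lithium (-1.24, SE 0.27, adjusted p = 0.0227). Its call was lost in 9 of 23 settings, among them those without control replicate 2 or 3 and without lithium replicate 2, 3 or 4. The call of 3142 was lost in 1 of 23, with plain background subtraction (adjusted p = 0.105 in limma). Plain background subtraction left 3 calls among 37 on the whole array, and fitting control and lithium alone gave 8 among 66.

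In ketamine 8 members fell and none rose, 8.33% of the 96 beside 3.39% of all tested probes called in either direction, 2.05% called lower and 1.34% called higher. The 8 were the 7 probes that fell with L803mts and probe 1813. Probe 3142 read 8.17, 7.98 and 8.03 in ketamine, a difference of -1.92 (SE 0.32, adjusted p = 0.00195), the largest among the members. Probe 2906 read 9.14, 9.12 and 9.12 (-1.76, SE 0.29, adjusted p = 0.00172). Probe 2877 read 8.69, 8.59 and 8.67 (-1.75, SE 0.30, adjusted p = 0.00208). In all 3 probes the ketamine arrays were close together and lay below every control, siGSK3b and lithium array. Probe 2869 read 9.49, 9.45 and 9.57 (-1.55, SE 0.16, adjusted p = 4.78e-05), and probe 1527 read 10.71, 10.91 and 11.03 (-1.55, SE 0.37, adjusted p = 0.0274). The falls of 2910 (-1.10, SE 0.13, adjusted p = 0.000159) and 1812 (-1.43, SE 0.33, adjusted p = 0.0240) also passed the threshold. The call of 1527 was lost in 13 of 22 settings, among them the fits without any 1 of the control or ketamine arrays, and that of 1812 in 10, among them those without control replicate 1 or 2 or any 1 of the ketamine arrays.

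Probe 1813, singled out after its values were seen, was the one called member with even spots. It read 11.43, 11.55, 11.51 and 11.72 in control and 10.88, 11.16 and 11.21 in ketamine, a difference of -0.47 (SE 0.12, adjusted p = 0.0353). The groups did not overlap, but its call was lost in 13 of 22 settings (adjusted p from 0.0190 to 0.172), among them those without control replicate 2, 3 or 4 and without ketamine replicate 1 or 2. Without control replicate 2, ketamine replicate 1 or ketamine replicate 2, the count of members called in ketamine was 5, among 73, 69 and 72 probes in that order. It was also 5 with plain background subtraction (of 71) and with array position as a block (of 96).

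Across the 3 treatments that gave calls, 5 members fell in each (2869, 2877, 2906, 2910 and 3142) and 8 in at least 1, beside 0.906% and 2.92% of all tested probes. The comparisons share the same control arrays, so their calls are not independent of each other. Nor are the unequal-spot probes, which varied together over the arrays. The 8 unequal-spot probes, described as a group formed after the values were seen, had median differences of -0.62 for siGSK3b (range -0.79 to -0.20), -1.34 for L803mts (range -1.58 to -0.76), -1.20 for lithium (range -1.50 to -0.53) and -1.55 for ketamine (range -1.92 to -0.81). The treated arrays lay entirely below control in 6, 7, 8 and 8 of them in that order, beside 3.71%, 4.44%, 4.12% and 6.61% of all tested probes. Probe 1960 passed the test in no treatment (-0.20, -0.76, -0.53 and -0.81 in the order siGSK3b, L803mts, lithium and ketamine), and with its upper spot alone the siGSK3b difference was 0.05 in place of -0.20. It read 11.12, 11.14, 10.85 and 11.06 in control, 11.07, 10.72, 10.75 and 10.82 in siGSK3b, and 10.92, 9.26, 10.35 and 10.62 in L803mts. The siGSK3b and L803mts arrays overlapped control, whereas those of lithium (10.37 to 10.59) and ketamine (10.00 to 10.50) did not.

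The 45 even-spot members had small median differences, with single members on both sides of 0. Differences lay below 0 in 30, 27, 25 and 30 of the 45 (siGSK3b, L803mts, lithium, ketamine). Of all tested probes, 52.4%, 47.8%, 46.9% and 47.2% lay below 0. The medians were -0.08 in siGSK3b, -0.04 in L803mts, -0.01 in lithium and -0.05 in ketamine, beside medians of all tested probes of -0.00, 0.01, 0.01 and 0.01. Single differences ran from -0.43 to 1.07 in siGSK3b, from -0.28 to 0.64 in L803mts, from -0.36 to 0.42 in lithium and from -0.54 to 0.75 in ketamine. An unadjusted p under 0.05 was found for 12, 6, 6 and 11 of the 45 in that order, beside 11.5%, 15.4%, 13.7% and 14.1% of all tested probes, and only probe 1813 in ketamine passed the adjusted threshold. Treated arrays lay entirely below control in 1, 2, 1 and 2 of the 45, and entirely above in 0, 0, 2 and 4, where the background for the latter was 2.48%, 3.01%, 4.56% and 6.99%. The 95% interval of the difference lay within 1 log2 unit of 0 on either side for 44, 44, 45 and 44 of the 45, and within 0.5 for 36, 37, 38 and 30. Changes of more than 2-fold were thus outside the interval of nearly all even-spot members, whereas smaller ones were not always.

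The unequal-spot pattern was not particular to these probes. Of all tested probes that fell, those with an upper spot at least 2 times as bright as the lower one made up 28 of 64 in L803mts, 23 of 45 in lithium and 30 of 70 in ketamine. They made up 0 of the 21, 35 and 46 that rose. The other 9 unsaturated bright probes with unequal spots gave 6, 5 and 5 falls. Among all 475 unsaturated bright probes, the 17 with unequal spots gave 13, 10 and 12 falls and the rest gave 13, 2 and 12. These classes were formed after the values were seen, from ratios averaged over all arrays, and support no test. Fitting the upper, middle or lower spots alone, an alternative chosen after seeing the data, gave falls in each: 5, 5 and 6 of the 8 in L803mts, 4, 4 and 5 in lithium, and 6, 5 and 7 in ketamine. Of all 3421 tested probes, those fits called falls in 49, 34 and 26 in L803mts, 43, 22 and 17 in lithium, and 54, 36 and 43 in ketamine. Median differences in ketamine were -1.67 with upper, -1.57 with middle and -1.37 with lower spots. The part of the spots' inequality in these falls was not tested.

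Set out by the serial order of the slides (control, siGSK3b, L803mts replicates 1, 3 and 4, lithium, ketamine, L803mts replicate 2), all 8 unequal-spot members had a lower mean at each of the 5 steps. Among the 45 even-spot members, only probe 1754 did, from 12.23 to 11.74. The 8 varied together over the arrays, so their falls are not separate observations. The slide means of probe 3142 were 9.98, 9.34, 8.80, 8.48, 8.06 and 7.21, those of probe 2906 were 10.89, 10.10, 9.75, 9.48, 9.12 and 8.11, and those of probe 2869 were 11.05, 10.31, 9.96, 9.75, 9.51 and 9.18. In each, the mean of L803mts replicates 1, 3 and 4 was above the lithium mean, although in probes 3142 and 2869 single arrays overlapped, and replicate 2 was below the ketamine mean. Each step from slide to slide is also a change of treatment, and the part of slide order in these differences was not tested.

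The treatments were also set against each other, in contrasts that hold no control array, although the spread was estimated over all 19 arrays. In the F test among the 4 treatments, 0 of 96 members passed in limma (13 at an unadjusted p under 0.05), beside 0.263% of all tested probes at the adjusted threshold and 512 of 3421 at the unadjusted one. The 5 lowest adjusted p-values were those of probes 2869 (0.0661), 3142, 2910, 3275 and 1883. The last 2 have even spots. Probe 3275 read 10.33, 9.97, 10.09 and 9.75 in siGSK3b, 10.65, 10.07, 10.18 and 10.39 in L803mts, 10.62, 10.66, 10.50 and 10.52 in lithium, and 9.96, 10.04 and 10.17 in ketamine. Lithium lay above every siGSK3b and ketamine array. Probe 1883 read 10.28, 10.69 and 10.59 in ketamine and 10.92, 11.05, 11.39 and 10.94 in lithium, which did not overlap. Without L803mts replicate 2, 7 members passed, while the count over all tested probes went from 9 to 78. Without L803mts replicate 1, there was 1 member among 17 probes.

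Of the 6 pairs of treatments, ketamine against siGSK3b called 1 member, probe 2869, at -0.80 (SE 0.16, adjusted p = 0.0456), beside 0.438% of all tested probes. Its 3 ketamine arrays (9.45 to 9.57) lay below all 4 siGSK3b arrays (10.16 to 10.46). At an unadjusted p under 0.05 this pair had 12 members, beside 12.2% of all tested probes. The other 5 pairs called none of the 96 in limma. The background was 0% in L803mts against siGSK3b, 0.0585% in lithium against siGSK3b, 0% in lithium against L803mts, 1.29% in ketamine against L803mts and 0.585% in ketamine against lithium. In the same order, 12, 15, 2, 4 and 9 members had an unadjusted p under 0.05, beside 8.68%, 11.4%, 8.68%, 13.7% and 9.91% of all tested probes. Without L803mts replicate 2, the pairs together called 8 members among 135 probes, against 66 probes with all arrays. The 1 call became 0 without control replicate 2, 3 or 4, L803mts replicate 3 or 4, lithium replicate 1, 2 or 3, or any 1 of the siGSK3b or ketamine arrays.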

How the data were processed

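Per the file headers, the deposited intensity values are GenePix Pro 4.1.1.4 foreground and local background medians of 1 channel at 532 nm, not normalized. Per the labels' protocols, low-molecular-weight RNA was labelled at the 3' end with Oyster-550. Each sample was read from the 8 blocks its label names, and 5 arrays on the same slides were not used. The authors' list of processed values served only to decide which probes they listed. Its normalization was not used.

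Background was corrected by normexp (offset 50) in limma 3.58.1 (R 4.3.3, data.table version 1.17.8). The log2 values of the 3 spots were averaged, without spots marked bad (88 in ketamine replicate 1, at most 2 elsewhere), and arrays were quantile normalized. The 40 control and empty spots per array were left out. Probes more than 2 background SDs above background on at least 3 arrays were tested (3421). Differences are limma's over 19 arrays in 5 groups, with two-sided p-values adjusted by the Benjamini-Hochberg method over all tested probes in each comparison. All adjusted p-values are limma's. The limma fit was tested on simulated data, with independent noise for each probe and no slide effect. The steps before the fit were not tested in this way. The number of arrays limits the precision.

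Members and lists were chosen with earlier results of these data known. Named probes were the 6 brightest members, the 3 on each side of the limit, up to 5 calls in each direction per treatment (the 3 largest differences where fewer than 3 passed), the 5 lowest F-test p-values, and the 3 smallest and 3 largest SDs. Probes 1812, 1813 and 1960 were named after their values were seen. Probes 1754 and 2282 were also named outside these rules. Alternatives changed background correction, normalization, filter, spots, blocks, moderation, groups fitted and single arrays.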

Additional observations from a re-analysis of the deposited data

Results flagged for a closer look

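Each unsaturated named member was checked in each group of 4 arrays for 1 array standing far from the other 3. There were 60 such checks, and 7 were marked. About 1 in 20, or 3, would be marked by chance in probes not chosen by their values. Some of these probes were named for large SDs or differences, so that rate need not hold for them. In L803mts, replicate 2 stood below the others in 4 unequal-spot probes: probe 2906 at 8.11 log2 units (the others at 9.72 to 9.78), probe 2877 at 7.72 (9.31 to 9.64), probe 1527 at 9.39 (11.51 to 11.64) and probe 1812 at 8.63 (10.47 to 10.65). That array was the only one used from its slide and had the lowest median foreground, 115 units, and the part of either in these values was not tested. The 4 probes varied together over the arrays, so their marks are not separate events. In control replicate 1, probe 2932 was high at 11.76 (the others at 9.82 to 10.00) and probe 3275 was low at 9.98 (10.58 to 10.65). In lithium replicate 1, probe 2910 was high at 11.55 (11.34 to 11.37).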

How the results depend on the processing

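No difference past the threshold changed sign under an alternative. Of 2085 values of single named probes under alternatives, 125 had another sign than the reported value, each short of the threshold in both fits and with a reported size of at most 0.27. Probe 1960 in siGSK3b was one of them, at 0.05 with upper spots alone against -0.20. Counts of members called moved by over 1.5 times as follows, and the cause was not tested. With plain background subtraction, L803mts had 4 (7 as reported), lithium 3 (5), ketamine 5 (8) and the pairs of treatments 0 (1). With cyclic loess, siGSK3b had 1 (0), the F test 1 (0) and the pairs 3. With trend and robust moderation these were 1, 1 and 2. Leaving out spots marked not found gave 2 in L803mts and 5 in the pairs. Fitting only the groups compared gave 4 in siGSK3b, 1 in L803mts and 8 in lithium. With array position as a block there were 5 in ketamine and 0 in the pairs. The pairs gave 0 with median scaling, with slide as a random block (correlation 0.0158) and with upper spots alone, and ketamine gave 5 with middle spots alone. Leaving out 1 array at a time gave between 0 and 3 in siGSK3b, 5 and 8 in L803mts, 4 and 7 in lithium, 5 and 8 in ketamine, 0 to 7 in the F test, 0 to 8 in the pairs and 93 to 98 members. The calls of probe 2869 against control in L803mts, lithium and ketamine were kept under each alternative.

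With each probe's mean level removed, arrays with the same replicate number had a median correlation near 0 over the tested probes (36 pairs, r from -0.41 to 0.35, median -0.02, 10 over 0.1). Apart from L803mts replicate 2, they also shared a position on their slides. With the replicate block the counts were 0 in siGSK3b, 6 in L803mts, 5 in lithium, 8 in ketamine, 0 in the F test and 1 in the pairs. Saturation limits what 43 members can show, since a change above 65535 units is not recorded.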
